A study of Mus musculus with 6 samples.

Results

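Fibronectin and 9 matricellular genes were followed through bulk RNA sequencing of 6 mouse tumours. The 10 genes (Fn1, Postn, Sparc, Sparcl1, Tnc, Tnxb, Spp1, Thbs1, Thbs2 and Tgfbi) were chosen by name, and all 10 were found by Entrez number among the 15295 genes of the count table. The tumours grew from NA13, a murine bladder cancer cell line that the series describes as high in DDR2. The strain is given as C57BL/6, and all 6 tumours had IgG as a further treatment. Of these, 3 tumours carried scrambled shRNA (control 1 to 3) and 3 were labelled shDdr2 (shDdr2 1 to 3), an shRNA against the collagen receptor Ddr2. The labels do not say how many shRNA sequences or cell clones were used, nor which tumours shared an animal. A p-value here thus reflects only variation among these libraries, and some of that may be technical. Library totals ran from 15560571 to 19522985 counts.

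Fibronectin is a large secreted glycoprotein that cells assemble into fibrils and grip through integrins. Matricellular proteins are secreted into the same matrix but mainly adjust how cells attach, move and respond to growth factors, rather than bearing load. In carcinomas, activated fibroblasts are a well-known source of fibronectin, periostin, SPARC and tenascin-C. Osteopontin, the product of Spp1, is also made by macrophages and tumour cells. DDR2 binds fibrillar collagens, so these genes encode the matrix components that accompany its ligand.

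Ddr2, the targeted gene, showed no fall under its own shRNA label. It stood at 6.42, 16.7 and 20.5 CPM (counts scaled to library size, on TMM-adjusted totals) in control 1 to 3, and at 4.84, 19.0 and 28.6 CPM in those labelled shDdr2 1 to 3. The groups overlapped, and the edgeR log2 fold change was 0.27 (SE 0.66, 95% interval -1.27 to 1.81, adjusted p = 1.00, n = 3 per group), so a lower level is not excluded either. Every direction below is therefore between libraries as labelled. These are whole tumours, in which Ddr2 RNA of cancer cells and of host cells cannot be told apart. The epithelial keratin Krt5 was at 5443 ± 507 CPM in control and 5538 ± 394 CPM in the libraries labelled shDdr2 (SD, n = 3). Of 9 epithelial markers Krt5 alone had a higher fitted value there and 8 had a lower one (median log2 fold change -0.66). The mean log2 level of this list was 8.892, 8.423 and 8.202 in control 1 to 3. In the libraries labelled shDdr2 1 to 3 it was 7.024, 8.127 and 8.22, so the groups overlapped. Control 1 was highest and the library labelled shDdr2 1 lowest. Of 8 urothelial markers Upk1a, Upk3a and Upk3b were not in the count table. The other 5 were tested, 1 with a higher and 4 with a lower fitted value, 0 called in edgeR and 1 in DESeq2. Among them Foxa1 was at 167 and 162 CPM, and Pparg, without overlap, at 12.7 and 3.81 CPM (log2 fold change -1.74, SE 0.44). The library labelled shDdr2 1 stood apart, with the lowest summed level of fibroblast markers (1280 CPM, against 2440 to 10300 in the others) and the highest of cornifying keratinocyte markers (3310 CPM, against 623 to 961). Krt10, Krtdap and Krt1 make up most of the latter sum. Of the same list, Flg was lowest in that library (45.3 CPM) and Ivl (58.8 CPM) lay within the range of the others. Skeletal muscle markers summed to 8.31 to 105 CPM in control and 390 to 2860 CPM in the libraries labelled shDdr2. The groups did not overlap in 7 of these 8 genes and in 4 of 9 epithelial ones (4.32% of all tested genes). In edgeR 0 genes of either list passed an adjusted p of 0.05 and 7 and 1 had an unadjusted p under 0.05, while DESeq2 called 3 and 0.

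No difference between the groups passed the test for any of the 10 genes, with intervals wide enough to hold changes in either direction. In edgeR's quasi-likelihood test 0 of the 10 genes passed an adjusted p of 0.05 (0% of the 14498 genes tested), all with adjusted p = 1.00, and 0 of 10 had an unadjusted p under 0.05 (1.44% of all genes). DESeq2, which called 0.267% of 14976 genes, called 0 of the 10. In 0 of 10 were the groups free of overlap (4.32% of all genes). The fitted difference was above 0 in 7 of the 10, against 57.1% of all genes, with a median log2 fold change of 0.19 against 0.04. That median was 0.05 with the replicate number as a block, and it ran from -0.29 without the library labelled shDdr2 3 to 0.52 without that labelled shDdr2 1. All 10 genes passed the filter on low counts, as did 14498 of the 15295 genes. Each has a count in every library, as does every gene deposited, since the lowest count is 1.

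By the ratio of the highest to the lowest library, most of the 10 genes varied more than the median gene, with Thbs2 and Tgfbi as the exceptions. Their combined share of all counts was 0.286%, 0.462% and 0.518% across controls 1 to 3, then 0.231%, 0.430% and 0.776% across tumours labelled shDdr2 1 to 3. The lowest and the highest share both lay in the group labelled shDdr2. In the median member the highest library was 3.80 times the lowest, against 2.04 times in the median tested gene, 1.91 times in Thbs2 and 1.62 times in Tgfbi. By the SD of log2 CPM, Thbs2 (0.384) was instead above the median gene (0.353) and Tgfbi (0.277) below it. That median is over genes with an average log2 CPM of at least 1. The same 2 libraries marked the ends for Fn1, Sparc, Sparcl1, Tnc, Tnxb and Thbs1: these 6 of 10 were lowest in that labelled shDdr2 1 and highest in that labelled shDdr2 3, as were 14.6% of all tested genes, a pattern picked after its values were seen.

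Per kb of exon (the CPM divided by the length of the gene's merged exons), Sparc was the most abundant of the 10, with a mean of 148 CPM per kb and a range of 91.1 to 283 over the 6 libraries. Sparc was above Tnc, next in the order, in 6 of 6 libraries. Tnc (109 CPM per kb), Thbs2 (105), Postn (90.7), Spp1 (79.6), Thbs1 (67.5), Tgfbi (60.2) and Fn1 (53.7) followed, and each exceeded the next in only 3 or 4 of 6 libraries. These neighbours are not told apart by their spread. Sparcl1 (31.9 CPM per kb) was below Fn1 in 6 of 6 libraries, and Tnxb (0.372 CPM per kb) was below Sparcl1 in 6 of 6. With the longest transcript as the length, Sparc stayed first at 244 CPM per kb and Postn moved to the second place at 151.

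**Figure D1:**
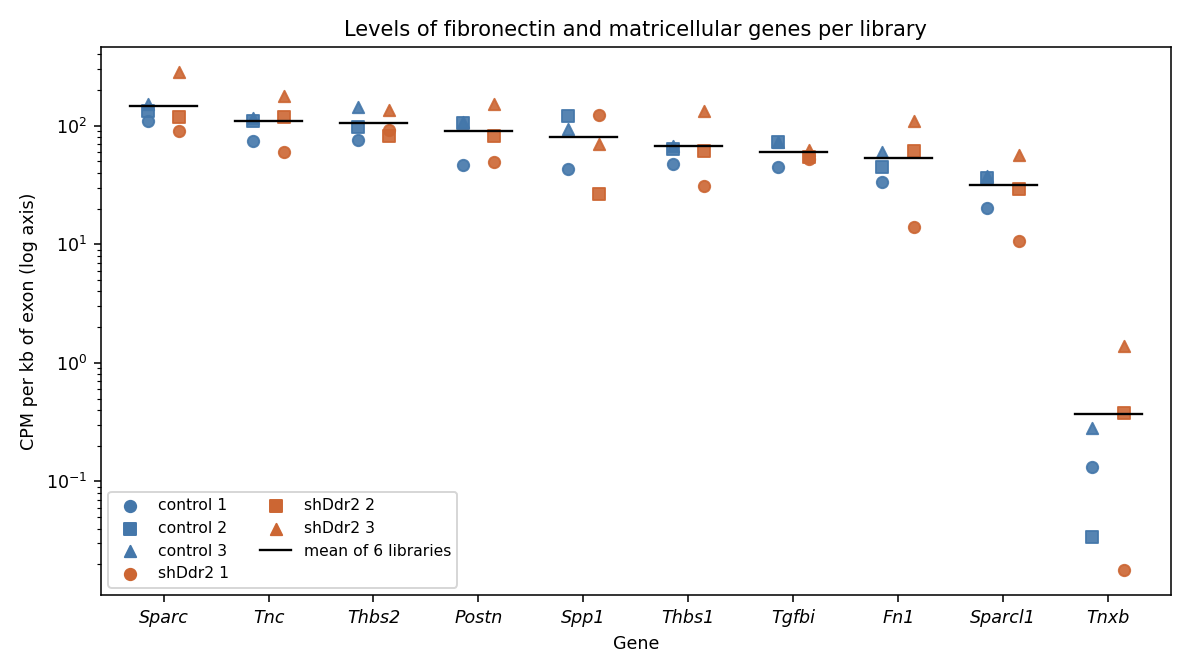
CPM per kb of exon on a log axis for each of the 10 genes, ordered by their mean (black bar); each point is 1 library, coloured by group and shaped by replicate number. Sparc is highest with a mean of 148, Tnxb lies far below the rest at 0.372, and the orange points of Fn1, Sparc, Sparcl1, Tnc and Thbs1 lie on both sides of the blue ones.

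The promoters of 7 of the 10 genes are in the RefSeq table for GRCm38.p6, and those of Fn1, Sparcl1 and Thbs1 are not matched. Shown here are 150 bases up to the start site of Postn and Tnc, which were highest in the library labelled shDdr2 3, and of Spp1 and Thbs2, which were highest in another library. Capitals mark matches on either strand to the TATA box TATAAA, the CCAAT box CCAAT, the GC box GGGCGG, the AP-1 site TGANTCA or the TEAD site GGAATG. Each sequence is printed on the gene's own strand, 5′ to 3′. A match on the other strand thus appears as its reverse complement, as ATTGG in Spp1 and TTTATA in Thbs2.
Postn, chr3:54360957-54361106, plus strand: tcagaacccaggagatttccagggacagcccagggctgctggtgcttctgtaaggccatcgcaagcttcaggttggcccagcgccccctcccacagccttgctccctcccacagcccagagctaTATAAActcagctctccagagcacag
Tnc, chr4:64047016-64047165, minus strand: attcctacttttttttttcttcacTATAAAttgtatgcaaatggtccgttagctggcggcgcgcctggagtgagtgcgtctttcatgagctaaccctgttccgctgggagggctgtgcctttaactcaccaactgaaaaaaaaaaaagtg
Spp1, chr5:104434961-104435110, plus strand: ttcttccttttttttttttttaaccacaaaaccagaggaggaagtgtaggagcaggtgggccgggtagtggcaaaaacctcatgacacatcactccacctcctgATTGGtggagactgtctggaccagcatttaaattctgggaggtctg
Thbs2, chr17:14694263-14694412, minus strand: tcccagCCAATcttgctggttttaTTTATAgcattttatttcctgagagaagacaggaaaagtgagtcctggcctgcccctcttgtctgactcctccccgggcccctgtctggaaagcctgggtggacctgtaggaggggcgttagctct
Over the 250 bases before any listed start, TATAAA was matched in Postn, Tnc, Spp1 and Thbs2 (4 of the 7 genes, against 12.4% of 32851 promoters). A gene was counted if any of its starts had a match, whereas each share is over single promoters, so the 2 are not alike. CCAAT was matched in Spp1 and Thbs2 (33.8% of promoters), GGGCGG in Tnc and Tgfbi (32.7%), TGANTCA in Tnxb alone (6.75%) and GGAATG in 0 of the 7 (12.6%). In Postn the TATAAA match lay 26 to 21 bases before the start. For the starts shown it lay at -126 to -121 in Tnc and, on the other strand, in Thbs2. In Spp1 it lay at -211 to -206, outside the bases printed. A match is a description of these letters only. Postn, Tnc and Spp1 each have 2 listed starts, of which 1 is shown.

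Fn1 encodes fibronectin (Entrez 14268, chromosome 1, 71585520 to 71653200, minus strand, GRCm38). It was measured at 394, 520 and 707 CPM in control 1 to 3, and 163, 711 and 1269 CPM in the libraries labelled shDdr2 1 to 3. Both the lowest and the highest tumour were labelled shDdr2, 7.78-fold apart, and the controls lay between them. The means were 540 ± 157 and 714 ± 553 CPM (SD, n = 3), an edgeR log2 fold change of 0.40 (SE 0.64, 95% interval -1.11 to 1.91, adjusted p = 1.00). On the log scale the means were nearly equal, at 9.04 log2 CPM in control and 9.05 in the libraries labelled shDdr2. The fitted fold change compares means of counts, which the highest library weighs on more. The gene-level counts do not separate the spliced forms of fibronectin, and 292 bases of its exons are shared with Apol7d, annotated on the other strand.

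Postn, which encodes periostin, a fibroblast product that binds collagen and integrins (Entrez 50706, chromosome 3, 54361109 to 54391037, plus strand), stood at 406, 924 and 928 CPM in control 1 to 3. In the libraries labelled shDdr2 1 to 3 it was at 427, 716 and 1333 CPM. The lowest library of each group was almost alike (406 and 427 CPM) and the ranges overlapped, with a log2 fold change of 0.13 (SE 0.49, edgeR adjusted p = 1.00).

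Sparc encodes SPARC or osteonectin, which binds collagen and takes part in fibril assembly (Entrez 20692, chromosome 11, 55394500 to 55423183, minus strand). It reached 414, 506 and 578 CPM in control 1 to 3, and 345, 452 and 1070 CPM in those labelled shDdr2 1 to 3. The controls lay close together and 1 library labelled shDdr2 stood well above all others, which gave a log2 fold change of 0.32 (SE 0.43, edgeR adjusted p = 1.00). Its relative Sparcl1, known as hevin and prominent in blood vessels (Entrez 13602, chromosome 5, 104079111 to 104113733, minus strand), was at 60.0, 106 and 110 CPM in control 1 to 3. It was at 31.3, 86.2 and 168 CPM in those labelled shDdr2 1 to 3, again with the extremes in that group, and a log2 fold change of 0.05 (SE 0.56, edgeR adjusted p = 1.00). The ratio of Sparc to Sparcl1 per kb was 5.36, 3.69 and 4.08 in control 1 to 3, and 8.56, 4.07 and 4.94 in those labelled shDdr2 1 to 3. The ratio was thus highest in the library where both genes were lowest, and the groups overlapped (exact permutation p = 0.5, two-sided, where 0.1 is the smallest possible; 0.9 adjusted over 6 ratios).

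Tnc encodes tenascin-C, a tenascin of remodelling and tumour stroma (Entrez 21923, chromosome 4, 63959785 to 64047015, minus strand). It stood at 581, 852 and 894 CPM in control 1 to 3, and at 463, 924 and 1383 CPM in those labelled shDdr2 1 to 3. The groups overlapped, with a log2 fold change of 0.25 (SE 0.41, edgeR adjusted p = 1.00). Its exons share 176 bases with 8030451A03Rik on the other strand. Tnxb encodes tenascin-X, which is typical of normal connective tissue and tied to collagen fibril spacing (Entrez 81877, chromosome 17, 34670535 to 34719815, plus strand). It was the rarest of the 10, with 30, 7 and 55 counts in control 1 to 3 and 3, 95 and 294 counts in those labelled shDdr2 1 to 3, which is 1.62, 0.418, 3.46, 0.217, 4.63 and 16.9 CPM. Its library labelled shDdr2 3 was 77.9 times that labelled shDdr2 1, with a counting interval of 26.4 to 380 (exact binomial, 95%, counting error only).

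Tnxb had the largest fitted difference of the 10, a log2 fold change of 1.99, and the widest interval (SE 1.25, 95% interval -0.94 to 4.91, edgeR adjusted p = 1.00). The difference was 0.43 without the library labelled shDdr2 3. The ratio of Tnc to Tnxb per kb ran from 129 in the library labelled shDdr2 3 to 3360 in that labelled shDdr2 1, with controls at 406 to 3200, so the 2 tenascins did not keep a fixed proportion. The mean log2 ratio differed by -0.87 between the groups (exact permutation p = 0.5, 0.9 adjusted over 6 ratios).

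Thbs1 encodes thrombospondin-1, an inhibitor of vessel growth that also activates latent TGF-beta (Entrez 21825, chromosome 2, 118111876 to 118127133, plus strand). It stood at 291, 384 and 413 CPM in control 1 to 3, and at 187, 374 and 811 CPM in those labelled shDdr2 1 to 3. As for Sparc, the controls were close together and the libraries labelled shDdr2 lay below, among and above them, with a log2 fold change of 0.33 (SE 0.49, edgeR adjusted p = 1.00). Its exons share 208 bases with Gm29233 on the other strand. Markers of platelets, another source of thrombospondin-1, summed to 35.8 to 45.3 CPM in control and 25.1 to 50.2 CPM in the libraries labelled shDdr2 (5 of 6 markers tested, Gp9 not in the table). In the library labelled shDdr2 1, where Thbs1 was lowest, the sum was highest but the mean log2 level of the list (1.65) was the second lowest, since Pf4 and Itga2b make up most of the sum. Their part in the result was not tested.

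Thbs2, which encodes the related thrombospondin-2 (Entrez 21826, chromosome 17, 14665500 to 14694235, minus strand), was steadier. It reached 527, 685 and 1007 CPM in control 1 to 3, and 645, 576 and 959 CPM in those labelled shDdr2 1 to 3. The library labelled shDdr2 1 was not low here, and the log2 fold change was -0.03 (SE 0.33, 95% interval -0.79 to 0.74, edgeR adjusted p = 1.00). Per kb, the ratio of Thbs1 to Thbs2 was 0.637, 0.647 and 0.473 in control 1 to 3, and 0.335, 0.749 and 0.975 in those labelled shDdr2 1 to 3. Thbs2 was thus the more abundant of the pair in 6 of 6 tumours, by the least in that labelled shDdr2 3.

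Tgfbi encodes the TGF-beta-induced protein, an integrin-binding relative of periostin (Entrez 21810, chromosome 13, 56609523 to 56639562, plus strand). It was at 171, 275 and 277 CPM in control 1 to 3 and at 199, 206 and 236 CPM in those labelled shDdr2 1 to 3. It varied least of the 10, 1.62-fold between the extremes, and here both extremes were controls. The log2 fold change was -0.17 (SE 0.25), and the 95% interval of -0.75 to 0.40 was the narrowest of the 10 (edgeR adjusted p = 1.00).

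Spp1 encodes osteopontin, a phosphoprotein that binds integrins and CD44 (Entrez 20750, chromosome 5, 104435118 to 104441050, plus strand), and it broke the common order. It reached 71.3, 201 and 154 CPM in control 1 to 3, and 202, 43.5 and 116 CPM in those labelled shDdr2 1 to 3. Here the library labelled shDdr2 1 was highest and that labelled shDdr2 2 lowest, and the log2 fold change was -0.24 (SE 0.58, edgeR adjusted p = 1.00). Gm42793, annotated on the same strand, shares 309 exon bases with it, so its count is uncertain to that extent. Macrophage markers (8 of 8 tested) summed to 241, 625 and 483 CPM in control 1 to 3 and to 238, 521 and 564 CPM in those labelled shDdr2 1 to 3. Spp1 was at its highest in the library where that sum was lowest, and low with it in control 1, and the part of these cells in the Spp1 level was not tested. Spp1 lies 321.4 kb from Sparcl1 on chromosome 5, with the bone and tooth matrix genes Dmp1, Dspp, Ibsp and Mepe between them, and the libraries fell in different orders for these neighbours.

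**Figure D2:**
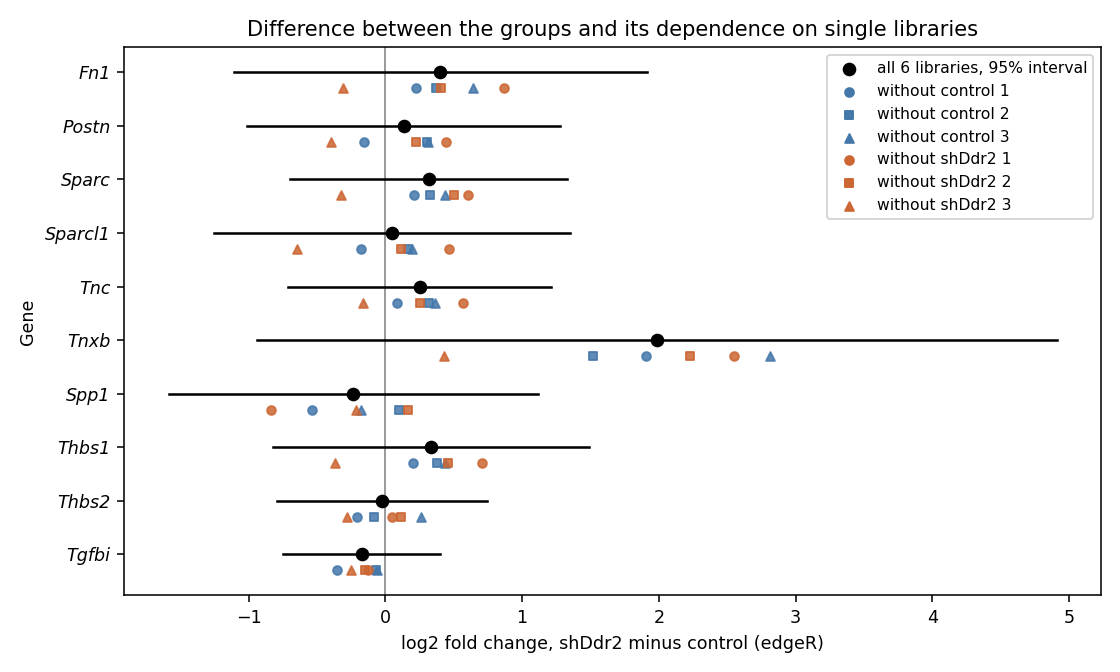
Difference between the libraries labelled shDdr2 and control for each gene, as the edgeR log2 fold change with its 95% interval (black) and the values with 1 library left out (coloured). All 10 intervals span 0, and the orange triangle, without the library labelled shDdr2 3, lies left of 0 for 9 of the 10 genes, all but Tnxb.

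The sign of the group difference depended on single tumours for 8 of the 10 genes. Without the library labelled shDdr2 3, 6 of the 7 genes with a positive difference had a negative one: Fn1 -0.31, Postn -0.40, Sparc -0.33, Sparcl1 -0.65, Tnc -0.16 and Thbs1 -0.37. Without that labelled shDdr2 1 the differences grew to 0.87 for Fn1, 0.44 for Postn, 0.61 for Sparc, 0.46 for Sparcl1, 0.57 for Tnc, 0.70 for Thbs1 and 2.55 for Tnxb. Without control 1, Postn (-0.16) and Sparcl1 (-0.18) were also below 0. Spp1 was above 0 without control 2 (0.10) or that labelled shDdr2 2 (0.16), and Thbs2 without control 3 (0.26), that labelled shDdr2 1 (0.05) or that labelled shDdr2 2 (0.12). Without the library labelled shDdr2 1, Fn1 and Tnxb were under the unadjusted threshold of 0.05, with an edgeR adjusted p = 0.705 each. Taken by replicate number, 6 of the 10 genes were lower in the library labelled shDdr2 1 than in control 1, 7 were lower in that labelled shDdr2 2 than in control 2, and 7 were higher in that labelled shDdr2 3 than in control 3. Fn1 differed by -1.27, 0.45 and 0.84 log2 CPM in those pairs, and with the replicate number as a block its difference was 0.03 (edgeR adjusted p = 1.00).

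Variation between tumours was set beside that of stromal markers. Fibroblast markers (10 of 10 tested, none absent) summed to 2440 to 5280 CPM in control and 1280 to 10300 CPM in the libraries labelled shDdr2. In whole tumours, fewer cells of a type and less RNA per cell cannot be told apart. When the mean log2 CPM of the 10 fibroblast markers was subtracted in each library, the SD over the 6 libraries narrowed from 0.69 to 0.17 for Thbs1, from 0.84 to 0.21 for Sparcl1 and from 1.00 to 0.32 for Fn1. It narrowed for Sparc, Tnc, Postn and Tnxb as well. The marker mean itself had an SD of 0.82, so a gene with an SD under 0.41 could only widen, which was the case for Thbs2 (0.38) and Tgfbi (0.28). Of the 8 genes that could narrow, 7 did, against 27.7% of 5250 such genes with an average log2 CPM of at least 1. Spp1 was the exception, at 0.89 before and 1.27 after. The SD of Sparc after subtraction, 0.32, became 0.14 on leaving out shDdr2 1 and 0.20 without the collagen genes Col1a1, Col1a2 and Col3a1 among the markers. The group contrast of these markers resembled that of the genes. In the libraries labelled shDdr2, 9 of 10 markers had a higher fitted value, 0 passed the edgeR threshold and the median log2 fold change was 0.31. The mean log2 CPM of the list was 5.984, 6.446 and 6.809 in control 1 to 3. It was 5.215, 6.335 and 7.675 in those labelled shDdr2 1 to 3, so only that labelled shDdr2 3 was above every control.

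**Figure D3:**
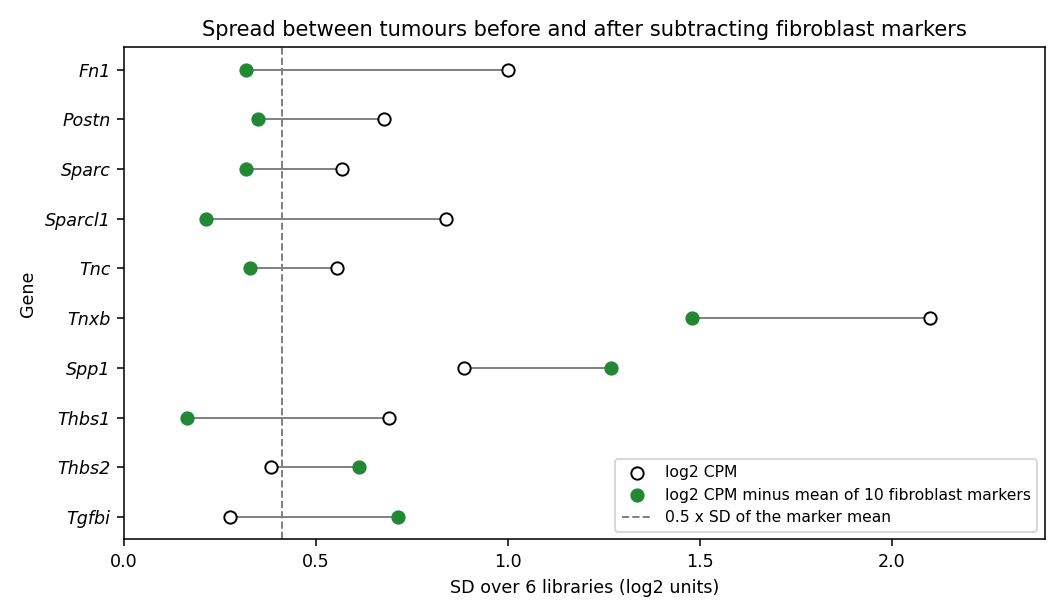
SD over the 6 libraries of each gene's log2 CPM (open circle) and of the same values after subtracting the library's mean of 10 fibroblast markers (filled circle). The filled circle lies left of the open one in 7 genes, furthest for Fn1 (1.00 to 0.32), and right of it in Spp1. Thbs2 and Tgfbi start left of the dashed line at 0.41, which is 0.5 times the SD of the marker mean, where subtraction can only widen the spread.

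Other stromal markers ran along the same axis, so the fibroblast list is not singled out. The root mean square distance between a gene's profile and a marker profile, each centred on its mean over the 6 libraries, was 0.15 log2 units for Thbs1 to fibroblast and to pericyte and smooth muscle markers (0.151 each), and 0.119 to endothelial ones. Sparcl1 lay 0.156 from endothelial, 0.178 from pericyte and 0.194 from fibroblast markers. Ddr2 followed the same course, at 0.311 from Sparcl1 and 0.326 from Fn1.

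**Figure D4:**
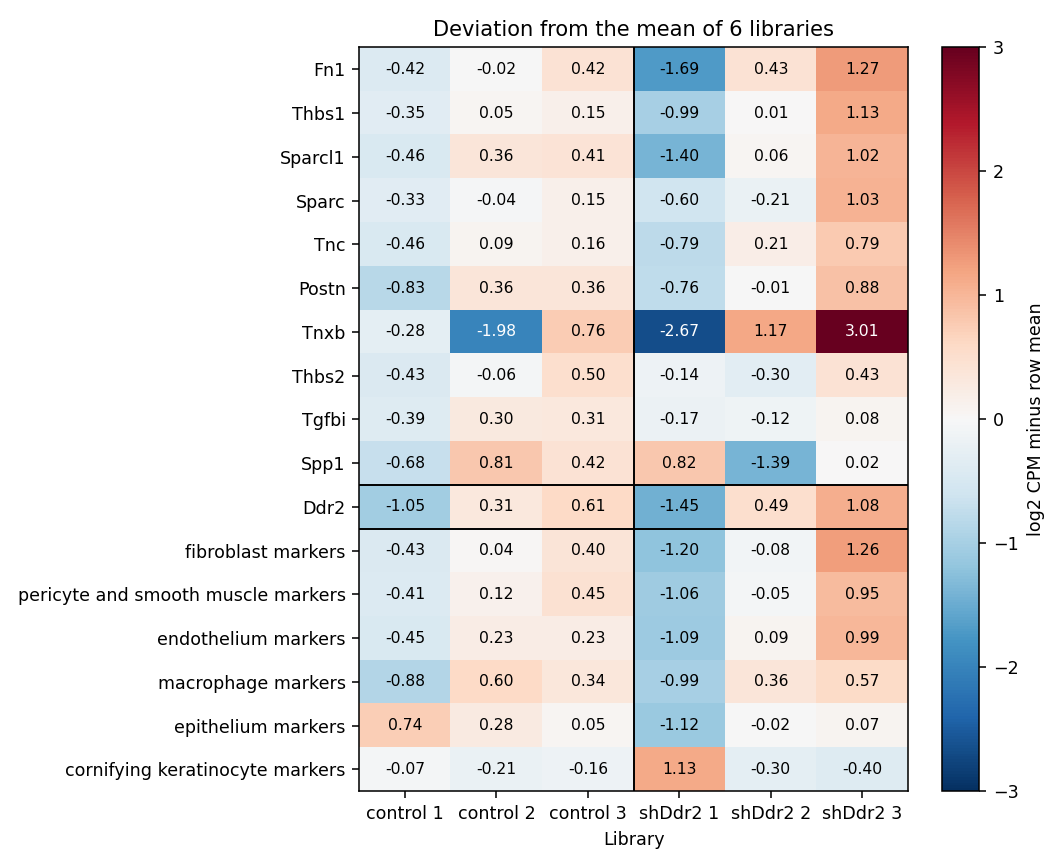
Log2 CPM minus the mean over the 6 libraries for the 10 genes, Ddr2 and the means of 6 marker lists, with libraries in columns. The upper 7 genes, Ddr2 and the fibroblast, pericyte and endothelial markers are low in the library labelled shDdr2 1 (-1.69 for Fn1, -1.20 for fibroblast markers) and high in that labelled shDdr2 3 (1.27 and 1.26), whereas Spp1 has 0.82 and 0.02.

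Among the 45 pairs of the 10 genes, the most nearly parallel profiles were those of Tnc and Thbs1 (0.186 log2 units), Sparc and Thbs1 (0.190), and Postn with Tnc and Sparc with Tnc (0.225 each). Thbs2 and Tgfbi lay 0.232 apart, but both varied little. A flat profile would lie 0.351 from Thbs2 and 0.253 from Tgfbi. Beyond the 10, 12199 genes were searched for the nearest profiles. Sparcl1 ran closest to Kdr, a VEGF receptor of endothelium (0.0587), and to Mylk, a myosin light chain kinase of smooth muscle (0.0829). Fn1 ran closest to Abcc9, a potassium channel subunit of pericytes (0.0933), and to Galnt17 (0.106), and Sparc to Dact3 (0.0746) and P3h3, a collagen prolyl hydroxylase (0.0793). Postn was nearest to Mical1 (0.107) and the complement protease gene C1ra (0.110), Tnc to Sema6c (0.0562) and Abcg1 (0.0601), and Thbs1 to Syde1 (0.0421) and Lrrc55 (0.0531).

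Tnxb was nearest to Pi16 (0.522) and Clec3b (0.679), known as markers of adventitial fibroblasts, though at a wide distance. Pi16 was at 7.71, 4.42 and 16.7 CPM in control 1 to 3, and at 3.03, 19.4 and 62.6 CPM in those labelled shDdr2 1 to 3, the same order as Tnxb. Thbs2 was nearest to the macrophage marker Cd68 (0.128) and to Zhx2 (0.152), and Tgfbi to Hnrnpa0 (0.0313) and Dusp7 (0.0604). The macrophage list as a whole lay further from Thbs2, at 0.553, and pericyte and smooth muscle markers lay at 0.452. Both distances exceed the 0.351 of a flat profile. Platelet markers, at 0.308, were little nearer than a flat profile. For Spp1, C1s2, a rare transcript, lay at 0.301. These distances describe 6 libraries and carry no test. Some shrank by over 1.5 times when 1 library was left out: Tnxb to Clec3b was 0.238, Postn to C1ra 0.0717 and Tgfbi to Hnrnpa0 0.0181 without that labelled shDdr2 1. Sparc to P3h3 was 0.0309 and Tnc to Abcg1 0.0357 without that labelled shDdr2 3, Fn1 to Abcc9 was 0.0609 without control 2, and Spp1 to C1s2 was 0.197 without control 3.

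Among other matricellular genes, too, no difference passed the test. Of 30 listed, 20 were tested, 13 of them with a higher and 7 with a lower fitted value in the libraries labelled shDdr2, 0 past the adjusted threshold and a median log2 fold change of 0.18 (0.04 over all genes). Leaving out control 1 gave a median of 0.02, and leaving out shDdr2 3 one of -0.21. Thbs4, a thrombospondin of tendon and muscle, had the smallest p, under 0.05 before and 1.00 after edgeR's adjustment over all genes. It stood at 4.26, 9.74 and 13.7 CPM in control 1 to 3, and at 6.57, 86.1 and 23.3 CPM in those labelled shDdr2 1 to 3. The groups overlapped, and the log2 fold change of 2.07 was 0.70 without the library labelled shDdr2 2, in which skeletal muscle markers were also highest at 2860 CPM. Tendon markers (3 of 5 tested, Tnmd and Kera not in the table) summed to 16.1 to 18.6 CPM in control. The sum was 52.0 and 58.6 CPM in the libraries labelled shDdr2 2 and 3, but lower than in any control in that labelled shDdr2 1. Fmod makes up most of this sum, at 6.64 CPM in the library labelled shDdr2 1 and 14.0 to 16.3 CPM in control. In that library Mkx (1.88 CPM) and the mean log2 level of the list (1.72) lay within the control range. Scx, a tendon transcription factor, did not overlap between the groups but was rare, at 0.701 to 0.956 and 1.49 to 3.31 CPM. It was at 2.53 CPM in the library labelled shDdr2 1, above every control. Their part in the result was not tested. Vtn, which encodes vitronectin, and Ccn5, a CCN family member, followed, at 1.41 (SE 0.68) and 1.17 (SE 0.59) on the log2 scale. The groups did not overlap for Vtn, a rare transcript of 0.270 to 2.63 CPM, whose difference was 0.50 without the library labelled shDdr2 2. For Ccn5 it was 0.57 without that labelled shDdr2 3.

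Of 20 tested receptor genes for these proteins, 10 had a higher and 10 a lower fitted value, 0 passed the adjusted threshold in edgeR or DESeq2, and the median log2 fold change was 0.02. That median was -0.09 with the replicate block, 0.32 on leaving out shDdr2 1 and -0.28 on leaving out shDdr2 3. The integrin subunit Itgb1 (1161 ± 176 and 1075 ± 53.2 CPM) and the osteopontin receptor Cd44 (742 ± 121 and 725 ± 31.8 CPM; SD, n = 3) were abundant in both groups. Cd36, a scavenger receptor that binds thrombospondin-1, had the smallest p of the list. Cd36 stood at 4.42, 9.62 and 5.34 CPM in control 1 to 3, and at 20.7, 14.7 and 11.8 CPM in those labelled shDdr2 1 to 3. The groups did not overlap, and the log2 fold change was 1.28 (SE 0.39, edgeR adjusted p = 1.00, DESeq2 adjusted p = 0.347) and lay between 1.04 and 1.69 when any 1 library was left out. Sdc4, a syndecan that acts with integrins in adhesion to fibronectin, also did not overlap, at 547 ± 102 and 402 ± 37.5 CPM (SD, n = 3), with a log2 fold change of -0.44 (SE 0.23). Plaur had -0.27 (SE 0.20). Of the 20 receptor genes, Cd36 and Sdc4 were those without overlap, against 4.32% of all tested genes.

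Of 13 TGF-beta ligands and targets, 7 had a higher and 6 a lower fitted value, 0 were past the adjusted threshold, 0 had an unadjusted p under 0.05 and the median log2 fold change was 0.06. The median was -0.09 with the replicate block, 0.30 on leaving out shDdr2 1 and -0.35 on leaving out shDdr2 3. The smallest p belonged to Smad7, an inhibitor of the pathway, at -0.41 (SE 0.30), to the ligand gene Tgfb3 at 0.51 (SE 0.43) and to Skil at -0.15 (SE 0.21). Tgfb3 stood at 28.0, 25.8 and 27.0 CPM in control 1 to 3, and at 15.6, 42.1 and 57.4 CPM in those labelled shDdr2 1 to 3. Like Sparc and Thbs1, it was even among controls and spread on both sides of them in the libraries labelled shDdr2. Its log2 fold change was 0.88 on leaving out shDdr2 1 and 0.10 on leaving out shDdr2 3.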

How the data were processed

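The authors deposited a table of whole counts, 1 row to each Entrez number. RSEM estimates counts, so these may have been rounded. The authors deposited log2 values too, each the log2 of 1 plus a count divided by its library's factor, a form that gave back 99.99% of the counts within 0.1 percent or 0.05 counts. Tools listed in the submitters' processing notes are Bowtie2 2.1.0, RSEM 1.2.31 and limma, with the build GRCm38.p5. For annotation, strand setting and shared reads, the choice is not given in the sources used here, so exons shared with another gene leave a count uncertain. The lowest count is 1. Symbols came from RefSeq (14876 of 15295 numbers matched), coordinates and exon lengths from GENCODE M21 on GRCm38.

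Counts were filtered with filterByExpr (14498 genes kept), scaled by TMM and tested in edgeR 4.0.16 by quasi-likelihood (robust, two-sided, Benjamini-Hochberg over all genes, threshold 0.05) in R 4.3.3. CPM uses TMM-scaled totals, and log2 CPM a prior count of 2. The test was tried on simulated data. DESeq2 1.42.0 and limma 3.58.1 were alternatives, beside other scalings, filters, a block and each library left out. The median 95% interval reached 0.76 log2 units to either side. Exact permutation tests ran over 20 assignments of libraries.

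Replicate numbers come from the titles. Same-numbered libraries deviated together (r of 0.299, 0.267 and 0.253 across genes), which met the criterion of 0.1 for pairs, though control 3 with the library labelled shDdr2 2 gave 0.254. Chi-square per degree of freedom within groups was 25.3 to 234. The 10 genes, the lists and the naming rule were chosen with earlier results of these data known. Named are the 10, Ddr2, the 3 smallest p of each gene list, the 2 nearest profiles per gene (1 is not reported here) and the most abundant marker of a list. Chosen after values were seen were Itgb1 and Cd44, the promoters and motifs, the 6 ratios, the distances to marker lists other than fibroblast, the restriction to genes whose spread could narrow and the counts by replicate number. Markers named beside the most abundant of a list, such as Pparg, Flg and Scx, were also chosen after values were seen.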

Additional observations from a re-analysis of the deposited data

How the results depend on the processing

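No gene of the 10 passed an adjusted p of 0.05 under any of the 16 alternatives. DESeq2 called 34 genes higher and 6 lower over the whole table, against 0 and 0 in edgeR (209 at an unadjusted p under 0.05), and none was among the 10. Sparcl1 turned from 0.05 to -0.21 with the replicate block, to -0.20 in limma on voom weights and to -0.21 on the deposited log2 values, and Fn1 from 0.40 to -0.016 on voom weights. Blocking by replicate number changed no call. With 1 library left out, the log2 fold change ranged from -0.31 to 0.87 for Fn1, -0.40 to 0.44 for Postn, -0.33 to 0.61 for Sparc, -0.65 to 0.46 for Sparcl1 and -0.16 to 0.57 for Tnc. It ranged from -0.83 to 0.16 for Spp1, -0.37 to 0.70 for Thbs1, -0.28 to 0.26 for Thbs2, -0.28 to 0.71 for Ddr2 and -0.28 to 0.018 for Skil. Tnxb stayed above 0 (0.43 to 2.82) and Tgfbi below it (-0.36 to -0.06) in those 6 runs. The cause of these turns was not tested. Vtn was not tested under the stricter filter. The number of libraries, 3 per group, limits the precision, and the 95% interval of the median gene of the 10 reached 1.15 log2 units to either side.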

Other observations

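The balance of fibronectin and osteopontin differed from tumour to tumour. Per kb of exon, the ratio of Fn1 to Spp1 was 0.780, 0.365 and 0.649 across controls 1 to 3, then 0.114, 2.30 and 1.54 across tumours labelled shDdr2 1 to 3. Libraries labelled shDdr2 held both the lowest and the highest values (exact permutation p = 0.9 on the log2 ratio, two-sided, 0.9 adjusted over 6 ratios chosen after values were seen). The lowest value lay in that labelled shDdr2 1 and the highest in that labelled shDdr2 2. The ratio of Fn1 to Tgfbi ran from 0.265 in the library labelled shDdr2 1 to 1.74 in that labelled shDdr2 3, with controls at 0.610 to 0.825.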
